A study of Mus musculus with 8 samples.

Results

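The genes described here are 36 named components of the RNA polymerase I (Pol I) and RNA polymerase III (Pol III) transcription machinery. They were taken as the rows of the count table whose Entrez gene maps to a fixed list of symbols: enzyme subunits, initiation factors and the Pol III repressor Maf1. All 36 symbols were found among the 27179 genes of the table, and 36 of 36 passed the filter on low counts that left 15649 genes for testing. The measurements are polyadenylated RNA from embryonic mouse cerebral cortex, 1 library per embryo, in 4 Taf8 wild-type embryos (Taf8 +/+) and 4 Taf8-deleted embryos (Taf8 -/lox, a null and a lox allele). TAF8 is a subunit of TFIID, the promoter-binding complex of RNA polymerase II. The promoter driving Cre and the embryonic day were not given in the sources used here, so the cells in which the lox allele was recombined are not known from them. Wild-type replicates 1 to 3 carry animal numbers with the same first part (408.4, 408.5 and 408.6) and wild-type replicate 4 is animal 409.2. The deleted embryos are animals 456.1, 472.1, 477.1 and 486.1, so no first part occurs in both groups, and a litter or batch marked in this way cannot be told apart from genotype.

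Pol I transcribes a single kind of gene, the ribosomal DNA repeat that yields the large ribosomal RNA precursor. Pol III transcribes short untranslated RNAs, among them transfer RNAs, the small ribosomal RNA of the large subunit, the spliceosomal RNA U6 and the elongation regulator RNA 7SK. Each enzyme has its own large subunits, shares others, and is brought to its promoters by factors of its own (SL1, UBTF and RRN3 for Pol I, and TFIIIA, TFIIIB, TFIIIC and SNAPc for Pol III). Proliferating cells such as cortical progenitors depend on both enzymes for the supply of ribosomes and transfer RNAs. The genes encoding this machinery are themselves transcribed by RNA polymerase II.

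Libraries held 26312505 to 65523487 counts in genes. Levels are given as CPM (counts scaled to the library's TMM-adjusted total), mean ± SD with n = 4 embryos per group, and differences as the log2 fold change of deleted over wild-type with its standard error (SE). A gene is called changed when its adjusted p is under 0.05 by edgeR's quasi-likelihood test with Benjamini-Hochberg adjustment over all genes tested. Taf8 itself was at 34.8 ± 2.75 CPM in wild-type and 0.643 ± 0.149 CPM in deleted cortex, a log2 difference of -5.75 (SE 0.12, adjusted p = 1.45e-09). The dorsal telencephalon markers Emx1 and Tbr1 were detected in every library and were lower in deleted cortex (log2 -0.28 and -0.38, adjusted p = 0.00234 and 0.000677). Among the 11 markers of that list, 8 were lower, 2 higher and 1 not called. Over all tested genes 29.6% were lower and 29.5% higher, and the marker lists here were not tested against these shares. Of 15 cortical neuron markers 14 were lower, with a summed level of 7822 to 9268 CPM in wild-type and 5766 to 6435 CPM in deleted libraries. The 14 radial glia and cycling progenitor markers were split (5 higher, 3 lower, 6 not called), and their summed level was 3593 to 4088 CPM against 4482 to 4812 CPM. All 11 endothelial and pericyte markers were higher (212 to 229 against 257 to 327 CPM), as were 5 of 8 tested meningeal markers (14.4 to 33.7 against 18.9 to 132 CPM). Microglial markers were higher for 5 and lower for 1 of 9 tested, and red blood cell markers higher for 4 of 8. Choroid plexus markers were called for 0 of 6, with 421 CPM in wild-type replicate 4 and 1250 CPM in deleted replicate 1 against 14.4 to 205 CPM in the other libraries. In each of these lists 0 markers were at 0 in all libraries. Wild-type replicate 3 stood furthest from its group, where each comparison with another wild-type library gave 23.2 to 28.4 for chi-square over its degrees of freedom. The part of these cell type differences in the results that follow was not tested. In these bulk samples, fewer cells of a type and less RNA per cell cannot be told apart.

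Messenger RNAs for the Pol I and Pol III machinery changed in both directions and mostly by little in Taf8-deleted cortex. Of the 36 genes, 18 were called, 11 higher and 7 lower, where 59.2% of all tested genes were called, 29.5% higher and 29.6% lower. The median log2 fold change was 0.06 over the 36 genes and 0.01 over all genes. The median size of the change, regardless of its sign, was 0.13 on the log2 scale for the machinery and 0.27 for all genes. A call with a change of at least 1.4-fold was made for 4 of the 36 genes, Polr1e, Polr3gl, Taf1d and Gtf3c5, and for 25.4% of all genes. The 4 wild-type and 4 deleted libraries did not overlap in CPM for 16 of the 36 genes and for 53.6% of all genes. With library size alone as the scaling, 22 were called, 16 higher and 6 lower, and with upper-quartile scaling 20, 14 higher and 6 lower. Over all genes these scalings also gave more higher than lower calls, 5257 and 4104 with library size alone and 5062 and 4258 with upper-quartile scaling.

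**Figure D1:**
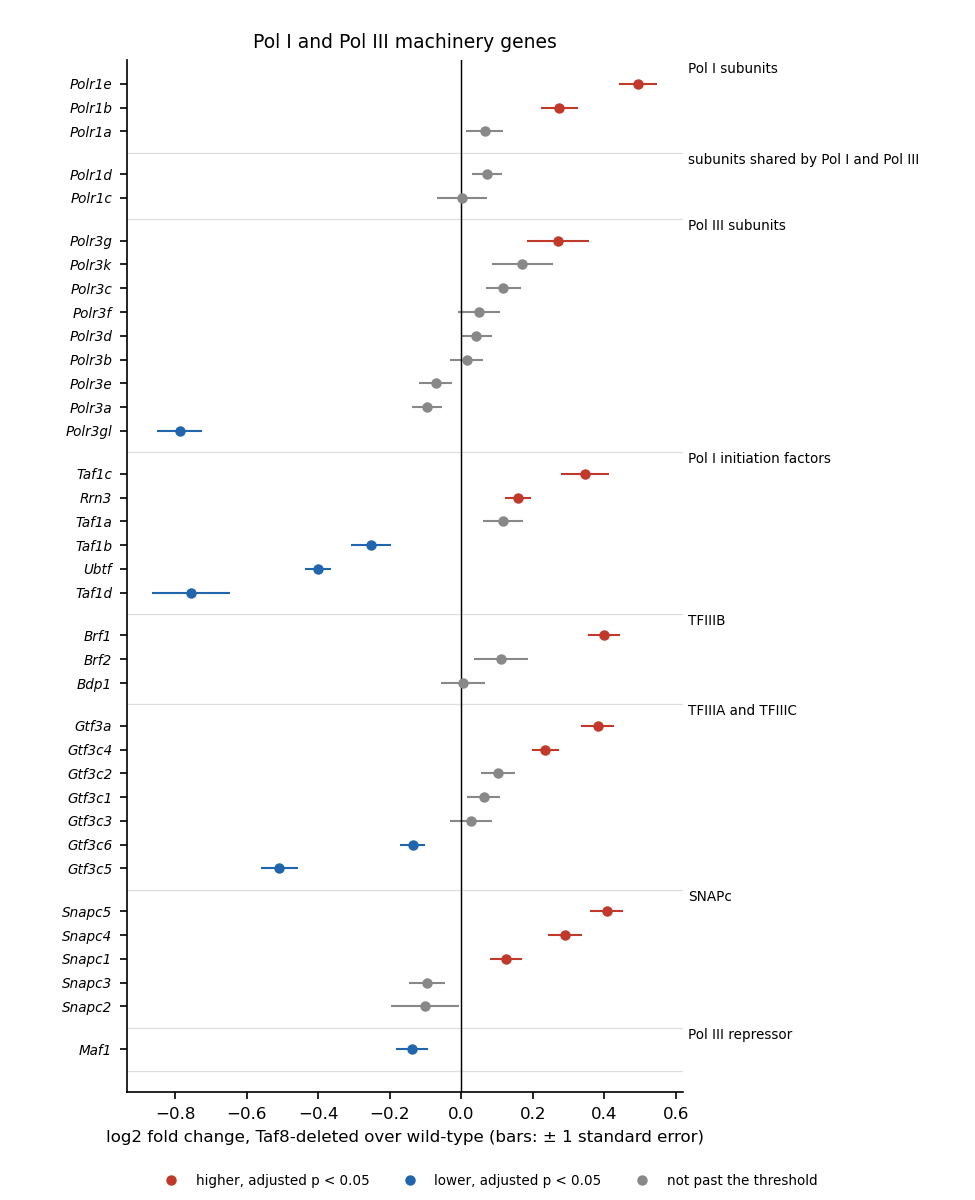
Log2 fold change of deleted over wild-type cortex for each of the 36 genes, grouped by role, with bars of 1 SE. The 18 called genes lie on both sides of 0, from -0.79 for Polr3gl to 0.49 for Polr1e, and the other 18 lie near 0.

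**Figure D2:**
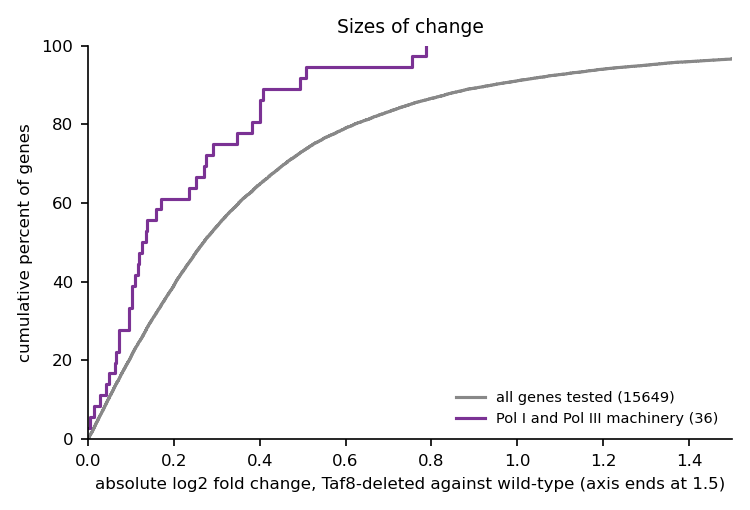
Cumulative share of genes by the size of their log2 fold change, for the 36 machinery genes and for all 15649 tested genes. The curve of the machinery genes reaches its middle at 0.13 and that of all genes at 0.27.

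Of the 18 called genes, 8 kept their call and direction in all 21 alternatives, which included other scalings, filters and tests, libraries left out, a stricter threshold and a test against a 1.2-fold change. These were Polr1e, Brf1, Gtf3a and Snapc5, which rose, and Polr3gl, Taf1d, Ubtf and Gtf3c5, which fell. The values of Ubtf, Gtf3a and Snapc5 in every library are shown because of this, a choice made after the values were seen. Of the remaining 10, 6 lost the call only against a 1.2-fold change (Polr1b, Taf1b, Taf1c, Rrn3, Gtf3c4 and Snapc4), and Gtf3c6, Maf1, Polr3g and Snapc1 lost it under other alternatives too.

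The promoters of 5 genes are printed here, those of the 4 genes with the largest changes and that of Polr3g, the paralog of Polr3gl that moved the other way. They are the 250 bases before the gene start in RefSeq (GRCm38.p6), on the gene's strand. Gene positions given below are those of GENCODE, where some starts differ. The Gtf3c5 window lies inside the GENCODE gene (28566311 to 28583751), so it may not be the promoter in use. The Polr1e window runs past the GENCODE start at 45018583. Capitals mark every match, on either strand, of the motifs searched: TATAAA, the CCAAT box CCAAT, the GC box GGGCGG, the ETS site CCGGAAG, the E-box CACGTG, the NRF1 core GCGCATGC and the YY1 core AAGATGGC. No matches overlapped in these 5 windows. The windows are chr3:96594182-96594431 (minus strand) for Polr3gl, chr13:81711014-81711263 (minus) for Polr3g, chr2:28583280-28583529 (minus) for Gtf3c5, chr4:45018359-45018608 (plus) for Polr1e and chr9:15305964-15306213 (plus) for Taf1d.
Polr3gl: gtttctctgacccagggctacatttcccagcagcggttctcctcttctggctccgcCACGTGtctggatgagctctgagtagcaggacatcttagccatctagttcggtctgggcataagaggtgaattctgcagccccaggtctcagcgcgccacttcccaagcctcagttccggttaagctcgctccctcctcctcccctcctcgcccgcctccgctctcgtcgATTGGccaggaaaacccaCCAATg
Polr3g: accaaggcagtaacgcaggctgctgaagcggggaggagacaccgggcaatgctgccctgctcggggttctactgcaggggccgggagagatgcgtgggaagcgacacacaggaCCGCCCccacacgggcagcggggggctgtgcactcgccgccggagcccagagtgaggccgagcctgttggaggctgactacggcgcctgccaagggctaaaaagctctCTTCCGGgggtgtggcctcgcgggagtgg
Gtf3c5: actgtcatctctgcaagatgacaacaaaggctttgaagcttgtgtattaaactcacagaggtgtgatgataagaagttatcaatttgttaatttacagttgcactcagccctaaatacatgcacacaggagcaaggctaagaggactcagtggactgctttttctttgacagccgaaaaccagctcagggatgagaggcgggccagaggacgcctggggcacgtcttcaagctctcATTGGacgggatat
Polr1e: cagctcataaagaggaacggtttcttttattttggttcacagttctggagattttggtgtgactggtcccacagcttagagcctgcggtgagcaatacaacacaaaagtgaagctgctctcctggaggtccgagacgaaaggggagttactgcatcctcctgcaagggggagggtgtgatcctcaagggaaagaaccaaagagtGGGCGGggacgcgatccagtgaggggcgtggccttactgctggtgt
Taf1d: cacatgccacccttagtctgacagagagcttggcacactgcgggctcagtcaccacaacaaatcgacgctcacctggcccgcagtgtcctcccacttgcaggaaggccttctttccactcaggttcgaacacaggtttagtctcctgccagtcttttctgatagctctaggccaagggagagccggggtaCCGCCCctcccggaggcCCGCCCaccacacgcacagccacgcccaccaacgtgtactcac
The Polr3gl window holds 2 CCAAT boxes and 1 E-box, and the Polr3g window 1 GC box and 1 ETS site, so the paralogs had no motif of this search in common. Gtf3c5 has 1 CCAAT box, Polr1e 1 GC box and Taf1d 2 GC boxes. G and C made up 59.2% of the Polr3gl window, 68.4% of the Polr3g window and 46.4% of the Gtf3c5 window, against a median of 60% over 11840 promoters of tested genes.

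The 3 genes for subunits found only in Pol I gave 2 rises and 1 gene that was not called. Over all tested genes 59.2% were called. Polr1e encodes a subunit of the Pol I heterodimer that takes part in initiation and elongation (chromosome 4, 45018583 to 45036565, plus strand). It had 22.4, 20.2, 20.8 and 20.3 CPM in the wild-type libraries and 30.2, 30.0, 27.5 and 30.0 CPM in the deleted libraries. All deleted libraries lay above all wild-type libraries, and the rise was 1.41-fold (log2 0.49, SE 0.05, adjusted p = 2.06e-05). Polr1b, the second-largest catalytic subunit, rose 1.21-fold, from 46.8 ± 2.5 to 56.6 ± 3 CPM (adjusted p = 0.00112). Polr1a, the largest and catalytic subunit, had 61.2 ± 4.29 and 64 ± 1.2 CPM and was not called (log2 0.07, adjusted p = 0.289). The subunits of the Pol I and Pol III assembly platform that both enzymes use, Polr1c and Polr1d, were not called either, at log2 0.00 (SE 0.07) and 0.07, though Polr1d passed the threshold with library size alone (0.11, adjusted p = 0.0406).

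Among the 9 genes for Pol III subunits, 1 rose, 1 fell and 7 were not called, where 59.2% of all tested genes were called. This group was not tested against that share. The 2 called genes were the paralogs Polr3g and Polr3gl. Their proteins are alternative versions of one subunit of the Pol III initiation subcomplex. Polr3g is known for its expression in pluripotent and transformed cells and Polr3gl for its broad expression in differentiated tissues. Polr3gl (chromosome 3, 96577872 to 96594181, minus strand) had 24.2, 26.1, 25.1 and 26.1 CPM in wild-type libraries and 13.7, 13.9, 15.1 and 16.0 CPM in deleted libraries. The deleted libraries were all lower, a fall by 0.79 on the log2 scale (SE 0.06, 1.73-fold, adjusted p = 2.48e-06), the greatest change in size among the 36 genes. Polr3g (chromosome 13, 81673843 to 81711013, minus strand) had 5.67, 6.70, 6.91 and 6.91 CPM in wild-type and 7.44, 7.72, 8.41 and 8.13 CPM in deleted libraries, from 171 to 442 counts. The groups did not overlap, and the rise was 1.21-fold (log2 0.27, SE 0.09, adjusted p = 0.0214). That call was lost without wild-type replicate 1 (log2 0.20, adjusted p = 0.0634), the lowest wild-type library, without deleted replicate 3 (0.23, adjusted p = 0.0778) and without deleted replicate 4 (0.24, adjusted p = 0.0669).

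The balance of the paralogs was compared per length of gene, in RPKM (CPM divided by the deposited gene length). Polr3gl was the more abundant in every library, at 18.1 ± 0.66 RPKM in wild-type and 10.5 ± 0.76 RPKM in deleted cortex, against 2.14 ± 0.19 and 2.59 ± 0.14 RPKM for Polr3g. Polr3gl RNA exceeded Polr3g RNA 9.3, 8.5, 7.92 and 8.24 times in the wild-type libraries and 4.03, 3.93, 3.91 and 4.29 times in the deleted libraries. The log2 ratio of Polr3g to Polr3gl was -3.08 ± 0.10 in wild-type and -2.01 ± 0.06 in deleted cortex, a 2.1-fold shift towards Polr3g. The groups did not overlap, and an exact two-sided permutation test over libraries (n = 4 per group, 70 permutations) gave p = 0.0286, the smallest that 4 against 4 allow. Since Polr3gl was lower and Polr3g higher in every deleted library, the ratio had to separate. This p therefore adds nothing to the separate results for the paralogs. The difference in log2 ratio was 1.02 to 1.1 with each library left out in turn. Scaling between libraries cancels in this ratio.

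The other Pol III subunits were not called, and their log2 fold changes lay between -0.09 and 0.17. They comprise the large catalytic subunits Polr3a (-0.09, adjusted p = 0.0751) and Polr3b (0.01), and Polr3c (0.12, adjusted p = 0.0596) and Polr3f (0.05), which form the initiation subcomplex with either paralog. Polr3d (0.04) and Polr3e (-0.07) form a further heterodimer, and Polr3k (0.17, adjusted p = 0.109) takes part in RNA cleavage and termination. Polr3k had 123 ± 12.6 CPM in wild-type and 139 ± 14.6 CPM in deleted cortex. Without wild-type replicate 3 it passed the threshold (log2 0.25, adjusted p = 0.0124). It did so too with deleted replicates 2 and 3 also left out (0.34, adjusted p = 0.000676) and with library size alone (0.21, adjusted p = 0.0391). Polr3a passed it without wild-type replicate 4 or deleted replicate 1 (-0.13 in both cases) and Polr3c without wild-type replicate 1 (0.14), with 1 CPM in 4 libraries as the filter (0.13), with upper-quartile scaling (0.15) and with library size alone (0.16). Without wild-type replicate 3 and deleted replicates 2 and 3, Polr3e (-0.13) and Polr3f (0.15) passed it as well.

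**Figure D3:**
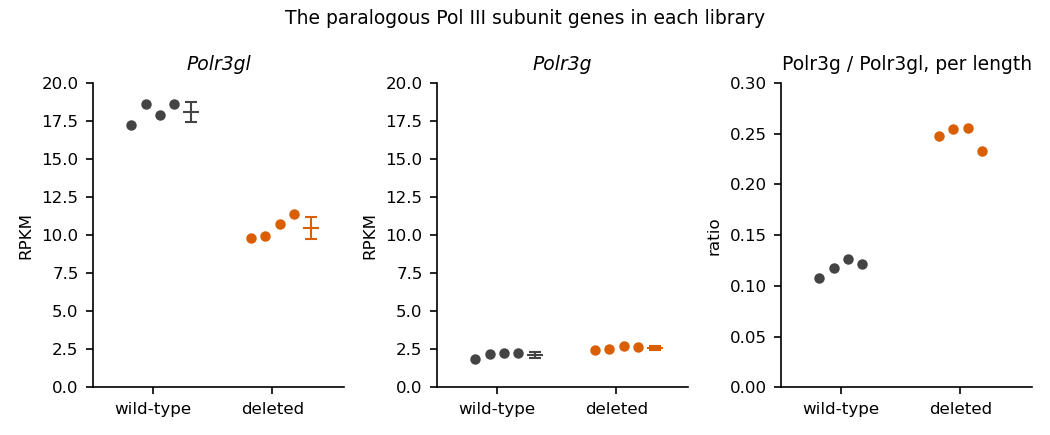
RPKM of Polr3gl and Polr3g in each library (points, with bars for mean ± SD, n = 4), and the ratio of Polr3g to Polr3gl per length. The ratio of Polr3g to Polr3gl lies at 0.107 to 0.126 in wild-type and 0.233 to 0.256 in deleted libraries, without overlap.

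The Pol I initiation factors changed in opposing directions, with 2 of 6 higher, 3 lower and 1 not called. Taf1a, Taf1b, Taf1c and Taf1d encode the TAFs that form SL1 with the TATA-binding protein on the ribosomal DNA promoter. Taf1d (chromosome 9, 15306214 to 15316991, plus strand) had 28.0, 29.9, 31.7 and 24.6 CPM in wild-type and 18.6, 14.2, 15.2 and 19.4 CPM in deleted libraries. Every deleted library was below every wild-type library, a 1.69-fold fall (log2 -0.76, SE 0.11, adjusted p = 0.000172). Taf1d hosts small nucleolar RNAs, its exons overlap Cep295 and 4931406C07Rik on the opposite strand, and 7.87% of its 81-base stretches also occur elsewhere in annotated transcripts, so its count is uncertain. Cep295 was not called (log2 -0.09) and 4931406C07Rik rose (0.25, adjusted p = 0.00339). Taf1b fell from 25.6 ± 1.23 to 21.5 ± 1.08 CPM (adjusted p = 0.00295), while Taf1c rose from 31.2 ± 3.18 to 39.6 ± 1.26 CPM (adjusted p = 0.00129). Some uncertainty holds for Taf1b too, as 5.31% of its 81-base stretches also occur in Gm19196. Taf1a was at 19.4 and 21.0 CPM and was not called (log2 0.12, adjusted p = 0.0982), but passed the threshold with upper-quartile scaling (0.15, adjusted p = 0.0417) and with library size alone (0.16, adjusted p = 0.0295). The RNAs for the SL1 TAFs thus included 1 rise and 2 falls, and the groups did not overlap in any of these 3 changes. Over all genes 59.2% were called and 53.6% did not overlap, and the Pol I initiation factors were not tested against these shares.

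Ubtf, the HMG-box protein that binds along active ribosomal DNA (chromosome 11, 102304560 to 102319742, minus strand), had 287, 278, 286 and 269 CPM in wild-type libraries. In deleted libraries it had 211, 215, 214 and 208 CPM. The groups were far apart relative to their spread, a 1.32-fold fall (log2 -0.40, SE 0.04, adjusted p = 7.11e-06). Rrn3, which links Pol I to SL1 and is a target of growth signalling, rose 1.12-fold from 123 ± 3.72 to 137 ± 2.57 CPM (adjusted p = 0.00374).

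TFIIIB is the factor that places Pol III at the start site, and its 3 genes here gave 1 rise. Calls were made for 33.3% of these 3 genes and for 59.2% of all tested genes. Brf1 serves transfer RNA and ribosomal RNA promoters within the gene, and Brf2 the upstream promoters of genes such as those of U6 and 7SK. Brf1 (chromosome 12, 112960085 to 113000704, minus strand) had 94.3, 87.0, 84.8 and 85.0 CPM in wild-type and 114, 121, 117 and 111 CPM in deleted libraries. The deleted libraries were all higher, a 1.32-fold rise (log2 0.40, SE 0.05, adjusted p = 2.97e-05). Brf2 had 15.7, 15.2, 13.3 and 16.3 CPM in wild-type and 15.2, 17.5, 16.2 and 16.3 CPM in deleted libraries, which overlapped, and was not called (log2 0.11, SE 0.08, adjusted p = 0.232). Bdp1, used with both, stayed uncalled at log2 0.00. Per length, Brf1 exceeded Brf2 3.02, 2.88, 3.19 and 2.62 times in wild-type and 3.77, 3.46, 3.64 and 3.42 times in deleted libraries. The log2 ratio was 1.55 ± 0.12 and 1.84 ± 0.07, a 1.22-fold shift towards Brf1 without overlap (n = 4 per group, exact two-sided permutation test, p = 0.0286). That p is the smallest that 4 against 4 allow. Since Brf1 was itself called and Brf2 was not, the ratio is not evidence separate from the rise of Brf1. Without deleted replicate 1 or deleted replicate 3 the exact p for the Brf1 to Brf2 ratio was 0.0571, with differences of 0.26 and 0.28. The groups stayed without overlap in both cases.

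Gtf3a encodes TFIIIA, the zinc finger protein specific to the 5S ribosomal RNA gene (chromosome 5, 146948657 to 146955614, plus strand). It had 42.4, 42.0, 39.1 and 43.9 CPM in wild-type and 53.0, 57.1, 53.8 and 54.1 CPM in deleted libraries. The groups did not overlap, and Gtf3a rose 1.3-fold (log2 0.38, SE 0.05, adjusted p = 4.88e-05). Its exons overlap those of Mtif3 on the opposite strand, and Mtif3 fell (log2 -0.29, adjusted p = 0.00177).

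The subunits of TFIIIC, which binds the internal promoter of transfer RNA genes, were split between 1 rise, 2 falls and 3 genes that were not called. Together with Gtf3a, 57.1% were called, near the 59.2% of all tested genes. Gtf3c5, in the DNA-binding part of the complex (chromosome 2, 28566311 to 28583751, minus strand), had 64.0, 58.5, 55.3 and 59.7 CPM in wild-type and 39.7, 40.9, 44.0 and 42.3 CPM in deleted libraries. The groups were clear of each other, and Gtf3c5 fell 1.42-fold (log2 -0.51, SE 0.05, adjusted p = 1.58e-05). Gtf3c4 rose 1.18-fold, from 162 ± 5.04 to 191 ± 3.56 CPM (adjusted p = 0.000354). Gtf3c6 fell 1.1-fold, from 51.7 ± 0.399 to 47.1 ± 0.695 CPM (adjusted p = 0.00606). Gtf3c1, the largest subunit (log2 0.06), Gtf3c2 (0.10, adjusted p = 0.0777) and Gtf3c3 (0.03) were not called. Gtf3c2 is uncertain, because 55.4% of its 81-base stretches occur also in an overlapping predicted gene, Gm29609. It passed the threshold without wild-type replicate 1 (0.13, adjusted p = 0.0223), with 1 CPM in 4 libraries as the filter (0.11), with upper-quartile scaling (0.13) and with library size alone (0.14).

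SNAPc binds the upstream element of small nuclear RNA genes, for Pol III and RNA polymerase II alike. Of its 5 subunits 3 were higher, 0 lower and 2 not called, so that 60% were called, near the 59.2% of all tested genes. Snapc5, the smallest (chromosome 9, 64179274 to 64183132, plus strand), had 18.5, 17.4, 18.4 and 18.3 CPM in wild-type and 24.1, 23.8, 24.6 and 23.7 CPM in deleted libraries. No library of one group reached the other, and the rise was 1.33-fold (log2 0.41, SE 0.05, adjusted p = 3.18e-05). Snapc4, the large DNA-binding subunit, rose 1.22-fold from 46.7 ± 2.81 to 57.1 ± 0.708 CPM (adjusted p = 0.000354). Snapc1 rose 1.09-fold from 39.7 ± 1.47 to 43.3 ± 1.56 CPM (adjusted p = 0.0308), with overlapping groups, and its call was lost on leaving out any library other than wild-type replicate 3 (adjusted p = 0.0576 to 0.154). Exons of Snapc1 overlap Gm49321 on the same strand, where 3.52% of its 81-base stretches also occur. Snapc2 and Snapc3 were at log2 -0.10 each (adjusted p = 0.376 and 0.127), and without wild-type replicate 3 and deleted replicates 2 and 3 Snapc2 passed the threshold (-0.28, adjusted p = 0.0276). Maf1, the repressor that holds Pol III back when nutrients are short, fell 1.1-fold from 137 ± 6.66 to 124 ± 3.73 CPM (adjusted p = 0.0216), with overlapping groups. The Maf1 call was lost with library size alone (log2 -0.10, adjusted p = 0.112) and with upper-quartile scaling (-0.11, adjusted p = 0.0657).

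**Figure D4:**
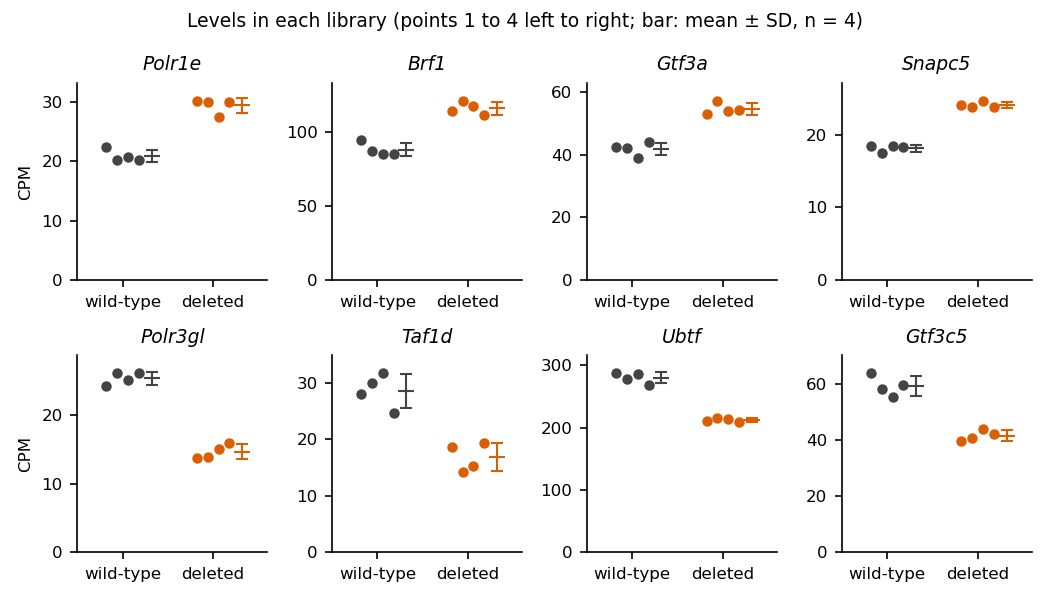
CPM in each library (points, with bars for mean ± SD, n = 4) for the 8 genes that kept their call in all 21 alternatives, each panel with its own axis. Deleted libraries all lie above wild-type for Polr1e, Brf1, Gtf3a and Snapc5 and all below for Polr3gl, Taf1d, Ubtf and Gtf3c5.

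Per length, the 36 RNAs spanned a wide range in wild-type cortex, from 2.14 RPKM for Polr3g to 78.2 RPKM for Maf1. Subunits of the same complex were far from equal in RNA level. Among the TFIIIC subunits Gtf3c6 had 50.7 RPKM and Gtf3c3 9.87 RPKM, and among the SL1 TAFs Taf1d had 16.8 RPKM and Taf1a 8.12 RPKM. The Pol I catalytic subunits Polr1a (10 RPKM) and Polr1b (11.7 RPKM) were lower than the shared subunits Polr1c (46.9 RPKM) and Polr1d (27.9 RPKM). The Pol III catalytic subunits Polr3a (9.74 RPKM) and Polr3b (9.25 RPKM) lay close to Polr1a. Exons of 10 of the 36 genes overlap another gene on the opposite strand, and the strand setting of the counting was not given in the sources used here. These are Polr1a, Polr3b, Polr3gl, Taf1c, Taf1d, Brf1, Brf2, Gtf3a, Snapc3 and Snapc4. Where the overlapping gene was tested, Dnaaf1 had 0.184 CPM in wild-type and 0.471 CPM in deleted cortex beside Taf1c, Adgra2 had 9.1 and 12.1 CPM beside Brf2, and Psip1 had 371 and 323 CPM beside Snapc3.

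A promoter was matched for 31 of the 36 genes, and Brf1, Brf2, Polr3d, Maf1 and Polr3a were not matched. The GC box was in 14 of the 31 windows (45.2%) and in 58.9% of all 11840 promoters of tested genes, namely in 7 of 10 genes that rose, 1 of 6 that fell and 6 of 15 not called. The CCAAT box was in 10 (32.3%, against 36.6%), with 2 of the 10 that rose, 3 of the 6 that fell and 5 of the 15 others. The ETS site was in 9 (29%, against 12.7%), of which 6 were in genes that were not called. The E-box was in 4, Gtf3c6, Polr3c, Polr3gl and Rrn3 (12.9%, against 8.31%). The TATAAA and YY1 motifs were each in 1 window, that of Gtf3c6 (against 6.52% and 1.86%), and the NRF1 core in that of Gtf3a (against 4.31%). These matches are a description of the letters in the windows and were not tested.

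Other genes of the pathway, 65 in 4 lists, were taken beside the 36, and 49 of the 58 found in the table could be tested. Of these 20 rose, 10 fell and 19 were not called, so that 61.2% were called, near the 59.2% of all tested genes. Among 11 other polymerase subunits and the TATA-binding protein, 5 rose, 1 fell and 5 were not called. Polr2e, a subunit common to the nuclear polymerases, rose from 70.1 ± 2.62 to 86.1 ± 3.52 CPM (log2 0.30, adjusted p = 0.000185), and Polr2h, another common subunit, from 20.8 ± 1.65 to 27.4 ± 0.891 CPM (0.40, adjusted p = 0.000278). Tbp, the component shared by SL1, TFIIIB and TFIID, rose from 46.4 ± 1.45 to 53 ± 1.61 CPM (0.19, adjusted p = 0.00218). Polr1h, a Pol I subunit named Znrd1 in the annotation used, fell (log2 -0.18, adjusted p = 0.00865).

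Of 15 tested regulators of Pol I transcription 6 rose, 4 fell and 5 were not called, so that 66.7% were called, against 59.2% of all tested genes. A call with a change of at least 1.4-fold was made for 0 of them and for 25.4% of all genes. The list was not tested against these shares. Kdm2b, a histone demethylase, fell from 169 ± 4.7 to 128 ± 4.17 CPM (log2 -0.40, adjusted p = 1.31e-05). Ttf1, which binds the terminators of ribosomal DNA, fell by 0.29 on the log2 scale (adjusted p = 0.000437). The nucleolar phosphoprotein gene Nolc1 rose (log2 0.33, adjusted p = 0.000179), as did Rrp8, part of a silencing complex of ribosomal DNA (0.27, adjusted p = 0.00019).

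Among the proteins that process or bind Pol III transcripts, 7 of 19 rose, 5 fell and 7 were not called, and 7 of the calls had a change of at least 1.4-fold. Over all genes 59.2% were called and 25.4% were called with a change of that size, and the list was not tested against them. Hexim1, which holds the elongation kinase P-TEFb inactive on 7SK RNA, rose 3.09-fold from 52.6 ± 3.06 to 163 ± 9.59 CPM (log2 1.63, adjusted p = 2.28e-08). Larp7, which binds and stabilises 7SK RNA, fell 2.29-fold from 57.2 ± 3.86 to 25 ± 1.9 CPM (log2 -1.19, adjusted p = 2.75e-07). Both code for partners of the same RNA and moved in opposite directions. Rpp25, a protein of RNase P and RNase MRP, fell 3.08-fold from 8.39 ± 1.08 to 2.73 ± 0.351 CPM (log2 -1.62, adjusted p = 2.24e-06). Pop1, the largest protein of the same enzymes, rose 1.49-fold from 33.1 ± 0.793 to 49.4 ± 3.62 CPM (log2 0.58, adjusted p = 9.5e-06).

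Of 19 listed Pol I and Pol III transcripts, 12 had a row in the count table, and poly(A) selection samples such RNAs only in part. The Pol I products Rn45s, Rn18s and Rn28s1 had no row, so no Pol I transcript was measured. Only 4 of the 12 could be tested. Of these 4, 2 rose and 0 fell, so that 50% were called, against 59.2% of all tested genes. The neuronal RNA Bc1 rose from 4.76 ± 0.358 to 7.46 ± 1.08 CPM (log2 0.65, adjusted p = 0.000656) and the 7SK gene Rn7sk from 10.5 ± 1.09 to 13.1 ± 1.11 CPM (0.32, adjusted p = 0.0133). The call of Rn7sk was lost without deleted replicates 2 and 3 (0.28, adjusted p = 0.0935), the libraries with the most meningeal marker RNA. Rpph1, the RNA of RNase P, was at log2 0.58 (adjusted p = 0.0596), and Rmrp, that of RNase MRP, at 0.40 (adjusted p = 0.27), both under 1 CPM and not called. Without wild-type replicate 4, or without deleted replicate 1, Rpph1 passed the threshold (adjusted p = 0.0486 and 0.0489).

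**Figure D5:**
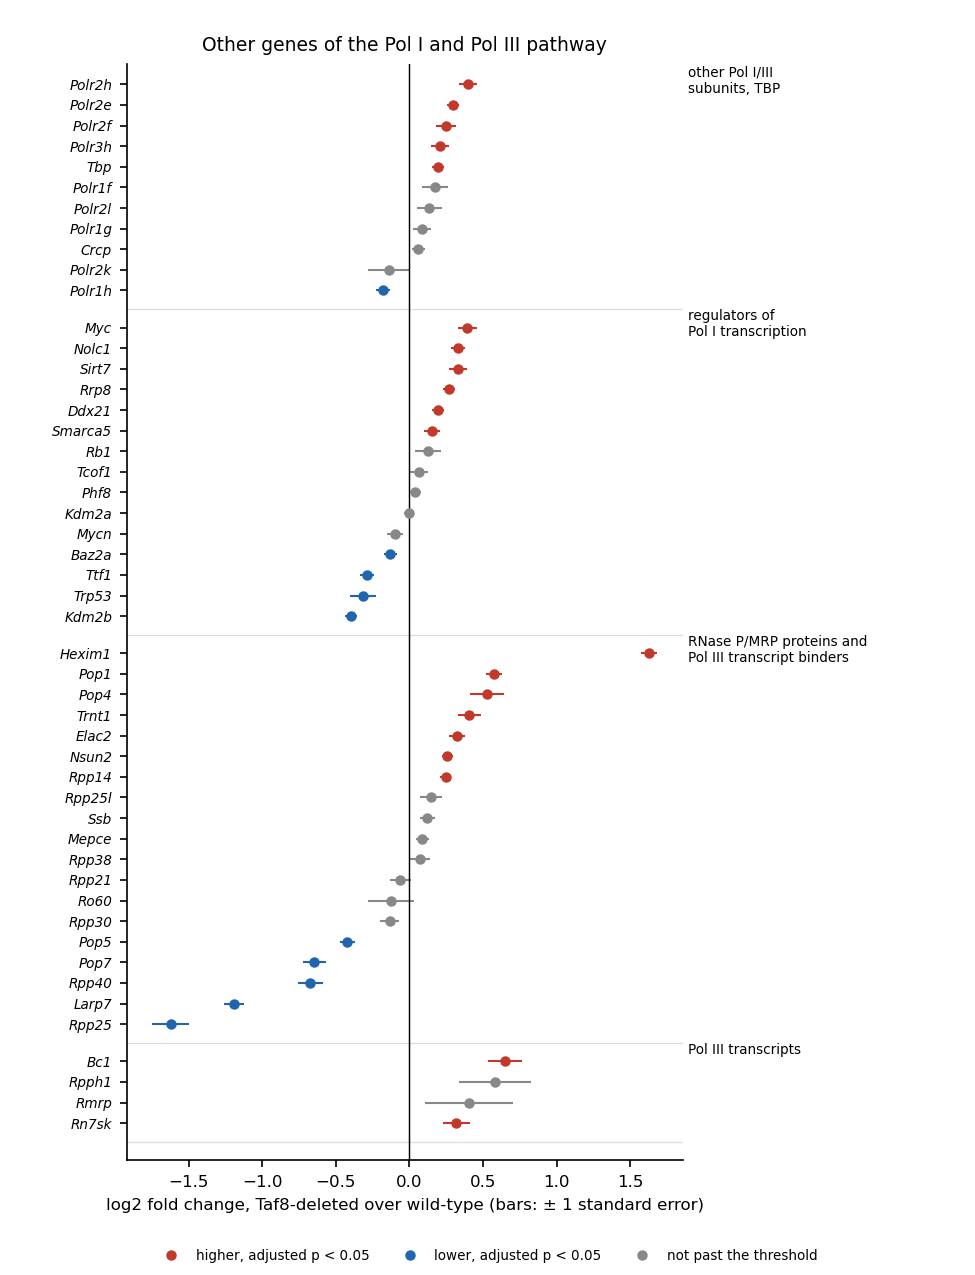
Log2 fold change of deleted over wild-type cortex with bars of 1 SE for the 49 tested genes of the 4 further lists. Hexim1 at 1.63 stands highest, Larp7 at -1.19 and Rpp25 at -1.62 lowest.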

How the data were processed

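Polyadenylated RNA of embryonic mouse cerebral cortex was sequenced as stranded, paired 81-base reads in 8 libraries, grouped by the labelled Taf8 genotype, each from its own embryo. Raw counts of reads, 1 row for each Entrez gene, were deposited; the authors made them with Subread 1.5.0 and featureCounts on mm10, per the submitters' processing notes, with a deposited gene length. Annotation, strand setting and handling of multiply mapped reads were not given in the sources used here. Matrix and single-sample files differed in 0 values. Symbols came from RefSeq (25275 genes) and GENCODE (18), and 1886 genes had none.

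Testing used the quasi-likelihood F-test of edgeR 4.0.16 under R 4.3.3 (filterByExpr, TMM, Benjamini-Hochberg adjustment over 15649 genes, threshold 0.05). The SE was taken as log2 fold change over the root of F. CPM and RPKM use TMM-scaled library sizes. In a library, 3 counts equal 0.0458 to 0.114 CPM, a floor for counting error alone. Libraries of a group always differed beyond sampling noise (chi-square over degrees of freedom, 3.7 to 28.4), so none was merged. Positions of genes, their overlaps and shared 81-base stretches come from GENCODE M21 (GRCm38), promoters from RefSeq.

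Members and lists were chosen with earlier results of these data known. Every one of the 36 genes is named, with values in every library for called changes of at least 1.4-fold and for both paralog pairs, and up to 4 genes of each further list by smallest adjusted p. Alternatives were other scalings and filters, DESeq2 1.42.0, limma 3.58.1 voom, a replicate block, libraries left out, a threshold of 0.01 and a test against a 1.2-fold change. Leaving out deleted replicates 2 and 3, with and without wild-type replicate 3, was added after seeing the data. The steps were tested on simulated data in which 200 of 15649 genes changed, far fewer than were called in the real data. They recovered 20.9% of 1.2-fold, 56.7% of 1.4-fold and 80.3% of 2-fold changes. With so few changed genes the adjustment sets a stricter cutoff on p than in the real data. Recovery in the real data therefore cannot be read from these shares. A gene that was not called may still have changed. A list of dorsal telencephalon markers is not reported here in full.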

Additional observations from a re-analysis of the deposited data

Results flagged for a closer look

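A single library stood apart from the other 3 of its group, by Dixon's criterion on the gap to the nearest library, in 10 of 110 group checks over 53 genes and 2 ratios. Chance alone flags about 1 in 20 such groups. Wild-type replicate 3 was the library in 4 of them. It had 52.6 CPM for Polr1c where the other wild-type libraries had 63.7 to 64.4 CPM, and 41.9 CPM for Snapc1 against 38.7 to 39.2 CPM. It also had 51.4 CPM for Larp7 against 59 to 59.2 CPM, and 4.22 CPM for Bc1 against 4.88 to 4.97 CPM. Wild-type replicate 1 had 5.67 CPM for Polr3g against 6.70 to 6.91 CPM and 34.3 CPM for Pop1 against 32.7 CPM in the others. Wild-type replicate 2 had 17.4 CPM for Snapc5 against 18.3 to 18.5 CPM.

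In the deleted group, replicate 3 had 27.5 CPM for Polr1e against 30.0 to 30.2 CPM and 49.7 CPM for Polr3e against 45.3 to 45.8 CPM. Deleted replicate 4 had 148.5 CPM for Hexim1 against 165.3 to 168.6 CPM. Polr1e, Snapc5, Larp7, Pop1, Hexim1 and Bc1 kept their calls with each library left out in turn. Polr3g lost its call without wild-type replicate 1.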

How the results depend on the processing

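The 36 genes gave 18 calls, 17 with a replicate block and 16 to 19 with each library left out in turn, while all genes gave 8285 with the block and 8404 to 9450. Against a 1.2-fold change, 8 of the 36 (4 higher, 4 lower), 13 of the other pathway genes and 4635 of all genes were called. The difference in log2 ratio was 1.02 to 1.1 for Polr3g to Polr3gl and 0.24 to 0.33 for Brf1 to Brf2 with each library left out. With the block, an exact sign-flip permutation test gave p = 0.125 for both ratios, the smallest that 4 pairs allow. Same-numbered libraries did not deviate together (correlations of -0.298, 0.0445, -0.113 and -0.479), so the numbers do not pair the samples. DESeq2 and limma voom each called 18 of the 36. Without wild-type replicate 4 and deleted replicate 1, the choroid plexus outliers, 16 of the 36 were called (51.5% of all genes), and without deleted replicates 2 and 3, also 16 (46.3%). With wild-type replicate 3 left out as well, 22 were called, 12 higher and 10 lower (53.8% of all genes).

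Some genes that were not called changed sign, and the cause was not tested. Polr1c moved to -0.0035 with DESeq2 size factors, -0.0039 with DESeq2, -0.0021 with no filter, -0.0665 without deleted replicates 2 and 3 and, past the threshold, -0.1318 without wild-type replicate 3 as well (adjusted p = 0.0445). Bdp1 moved to -0.0021 with DESeq2 size factors and with DESeq2, -9e-04 with no filter and -0.0733 without wild-type replicate 4 and deleted replicate 1. Without those 2 libraries Polr3b was at -0.009 and Polr3f at -0.0018. Polr3b was at -0.0374 without deleted replicates 2 and 3, and with wild-type replicate 3 left out too Polr3b was at -0.0296 and Brf2 at -0.0105. With each library left out in turn, Polr1c ran from -0.0679 to 0.0256, Polr3b from -0.0258 to 0.0329, Polr3d from -3e-04 to 0.0555, Bdp1 from -0.0582 to 0.0473 and Gtf3c3 from -0.0126 to 0.0442.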

Other observations

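Of the 36 genes 11 start close to a neighbour on the opposite strand, within 1000 bases or with overlapping starts, and 9 of the 11 neighbours were called, where 59.2% of all tested genes were. The fold changes of a pair had the same sign in 8 of 11, a share not compared with other neighbouring genes. These 8 include Polr1c, which was at 0.00 and changed sign in 9 of 21 alternatives. In 7 pairs the neighbour was called and the machinery gene was not, in 2 the machinery gene alone was called, and in 1 pair each both were called in the same and in opposite directions. Gtf3c4 and Ddx31, an RNA helicase gene whose start lies 46 bases away, both rose (log2 0.24 and 0.34). Taf1d fell by 0.76 where the overlapping 4931406C07Rik rose by 0.25. Polr3a stayed uncalled at -0.09 beside the ribosomal protein gene Rps24, 67 bases away, which fell by 0.47 (adjusted p = 1.43e-05). Polr1c was at 0.00 beside Yipf3, 26 bases away, which rose by 0.45 (adjusted p = 3.39e-05). Polr3f was at 0.05 beside Dzank1, 304 bases away, which rose by 0.70 (adjusted p = 7.77e-05), and Polr1d at 0.07 beside Lnx2, 464 bases away, which fell by 0.55 (adjusted p = 5.72e-05). The differences within pairs were not tested.

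Several Pol III transcripts were near or at the floor of these poly(A) libraries and were not tested. Rn5s had 0 counts in every library, Rny1 0 to 7, Rny3 0 to 5 and Vaultrc5 1 to 4 counts.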
